A study of Homo sapiens with 6 samples.

Results

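The phosphodiesterases, adenylyl cyclases and A-kinase anchors of the cAMP pathway were examined in NCI-H295A cells exposed for 18 h to 8-Br-cAMP at 1 mM (3 arrays) and in control cells without it (3 arrays), both grown in medium with fetal calf serum and insulin. NCI-H295A is an established human adrenocortical carcinoma line, so the data describe 1 tumour line. The analogue 8-Br-cAMP enters cells and activates protein kinase A without the ACTH receptor or adenylyl cyclase. Members were the genes whose platform symbol has the form of a numbered PDE with a letter A to D, a numbered ADCY, or a numbered AKAP with or without a final L. Each gene was represented by its probe set with the highest mean log2 signal, which gave 40 genes of 11963 with a single symbol on the array. They comprised 19 phosphodiesterase, 8 adenylyl cyclase and 13 anchor symbols. The name pattern also takes in PDE6D, which encodes a prenyl-binding protein first found with the retinal phosphodiesterase and not an enzyme that degrades cyclic nucleotides.

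Adenylyl cyclases make cAMP from ATP when a hormone receptor activates the stimulatory G protein. Phosphodiesterases break cAMP or cGMP down, and their families differ in substrate and in control by calcium, cGMP or phosphorylation. A-kinase anchors hold protein kinase A near its substrates, often in a complex with a phosphodiesterase, so that the signal stays local. In the adrenal cortex cAMP carries the ACTH signal to steroid synthesis, and a high-affinity cAMP phosphodiesterase, PDE8B, is known for its role in restraining it.

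Signals are linear intensities scaled by array, with 1 value per probe set and array. Genes with a mean log2 signal above 5.51, a signal of 45.5, were kept for testing. That level left 22 of the 40 members (55%), against 7927 of 11963 genes in all (66.3%). Both number 1 arrays stood apart. Their ratio of 3' to 5' actin probe signal, which grows as RNA degrades, was 38.8 for 8-Br-cAMP 1 and 5.72 for control 1, and 1.93 to 2.41 for the remaining 4 arrays. The correlation of log2 signals was 0.980 between 8-Br-cAMP 2 and 3 and 0.961 between controls 2 and 3, but 0.776 between 8-Br-cAMP 1 and 2. Results are therefore given without a block, with the array number as a replicate block (the paired fit), and with both number 1 arrays left out. All 10 analysed adrenocortical markers, NR5A1, STAR, CYP17A1 and MC2R among them, lay above the filter level. Of the analysed markers of adrenal medulla, fibroblasts, endothelium and blood, 7 of 21 did so (CHGB, COL1A1, COL3A1, DCN, PECAM1, VWF and HBB). TH, DBH, LUM, CDH5 and PTPRC were among those below it. Summed signals of the 6 fibroblast markers were 439.9 to 543.1 with 8-Br-cAMP and 608.8 to 1160.2 in controls, without overlap. Those of the 5 endothelial markers were 304.7 to 419.4 with 8-Br-cAMP and 183.4 to 231.4 in controls. Their part in the results was not tested. In bulk RNA, fewer cells expressing a gene and less RNA per cell cannot be told apart.

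Promoter sequences are shown first for PDE4A, AKAP7 and PDE8B, the members on which the comparison turns. By the brightest probe set of each gene, PDE4A was lower in 2 of 3 pairs and AKAP7 fell in the paired fit. By the same probe sets PDE8B was the 1 kept member higher in every pair. Cyclic AMP response elements (CREs), the motifs known to bind CREB, were searched in the RefSeq windows of GRCh38.p14 that run from 250 bases before to 50 bases after a start. Capitals mark the full CRE TGACGTCA, its shorter core TGACG (which is also inside the full CRE) and the NR5A1 motif AAGGTCA, on both strands. The windows were chr19:10416523-10416822 (plus strand) for PDE4A, chr6:131135217-131135516 (plus strand) for AKAP7 and chr5:77086465-77086764 (plus strand) for PDE8B.
PDE4A: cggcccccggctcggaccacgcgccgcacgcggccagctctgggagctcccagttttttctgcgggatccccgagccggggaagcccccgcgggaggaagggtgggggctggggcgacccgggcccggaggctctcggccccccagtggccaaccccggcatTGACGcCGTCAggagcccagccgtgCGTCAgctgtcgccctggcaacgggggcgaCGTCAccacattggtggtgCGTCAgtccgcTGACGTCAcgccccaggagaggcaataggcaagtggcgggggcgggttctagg
AKAP7: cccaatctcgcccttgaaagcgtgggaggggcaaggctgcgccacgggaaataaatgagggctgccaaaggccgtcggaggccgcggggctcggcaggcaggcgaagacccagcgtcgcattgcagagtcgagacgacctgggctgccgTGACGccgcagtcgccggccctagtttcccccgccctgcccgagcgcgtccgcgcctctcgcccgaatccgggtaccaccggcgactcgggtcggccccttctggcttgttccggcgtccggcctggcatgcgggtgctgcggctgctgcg
PDE8B: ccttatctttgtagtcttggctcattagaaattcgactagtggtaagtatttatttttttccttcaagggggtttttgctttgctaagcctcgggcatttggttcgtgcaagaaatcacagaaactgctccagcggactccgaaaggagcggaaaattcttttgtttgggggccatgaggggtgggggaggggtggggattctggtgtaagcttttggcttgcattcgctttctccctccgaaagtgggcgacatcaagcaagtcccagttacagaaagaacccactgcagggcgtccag
The PDE4A window held 1 full CRE, at base 248 of the printed run, and 5 further TGACG cores. It is 1 of 5 PDE4A windows and the only 1 of them with a full CRE. Which start the cells use was not measured. The AKAP7 window, 1 of 2 for that gene, held 1 TGACG core, at base 150. The PDE8B window, 1 of 4, held no match to any of the 3 motifs. For these genes too the start in use was not measured. Of the 40 members 33 had a window, 78 windows in all. A full CRE occurred in 2.56% of these windows (PDE4A and PDE7B), against 1.85% of all 35116 windows in the table. A TGACG core occurred in 23.1% of the members' windows and in 24.6% of all windows. The NR5A1 motif occurred in 2.56% of the members' windows and in 3.92% of all.

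AKAP7, an anchor, was the 1 member that passed the paired fit, and the share of members called was near that of all genes both in that fit and without the block. Without a block 0 of the 22 members passed limma at an adjusted p under 0.05 (background 0% of 7927 genes), with adjusted p between 0.273 and 0.999. Counts of members and background genes here use the brightest probe set of each gene. On that basis AKAP7, which was lower, was the 1 member at an unadjusted p under 0.05 (4.55%, background 11.9%, or 7.86% for lower genes). The paired fit gave 1 call of 22, AKAP7 (4.55%, background 3.68%, or 1.96% for lower genes). Its unadjusted p was under 0.05 for 3 members, AKAP7 and ADCY2 lower and PDE8B higher (13.6%, background 22.4%, or 14.6% lower and 7.8% higher). The submitters' own selection of 2-fold changes with p under 0.05, applied without the block, also held AKAP7 (background 7.01%, or 4.38% for lower genes). Leaving out the number 1 arrays, 6 of 22 passed (27.3%, background 33.3%), of which PDE8A and PDE8B were higher (background 12.8%) and AKAP7, AKAP8L, AKAP12 and PDE4A lower (background 20.5%). Those p-values rest on arrays 2 and 3, which are closely alike, so their spread may be technical. The design text speaks of 3 separate experiments, but no label ties an array to one, so all p-values measure how far these arrays scatter, and that scatter may be technical.

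Across the 22 members the median log2 difference was -0.22, and 16 of them were lower after 8-Br-cAMP (72.7%). Over all 7927 genes the median was -0.14, with 61.3% lower. The family medians were -0.15 for 9 phosphodiesterases, -0.34 for 4 adenylyl cyclases and -0.25 for 9 anchors. Over all kept probe sets the median was -0.13 for the deposited values, -0.03 after quantile normalization and 0.09 with a common median. For the members it was -0.05 after quantile normalization (8 of 22 higher) and 0.01 with a common median (11 of 22 higher). The phosphodiesterase median turned above 0 (0.0060 after quantile normalization, 0.076 with a common median). That of the cyclases stayed below 0 (-0.19 after quantile normalization, -0.12 with a common median), as did that of the anchors (-0.19 and -0.028, by the same scalings). By pair, 8 of 22 differed in the same direction in all 3 pairs (36.4%, background 44.7%), 7 lower (background 29.5%) and 1 higher (background 15.2%). In 10 members pair 1 ran opposite to both other pairs (45.5%, background 34.4%).

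**Figure D1:**
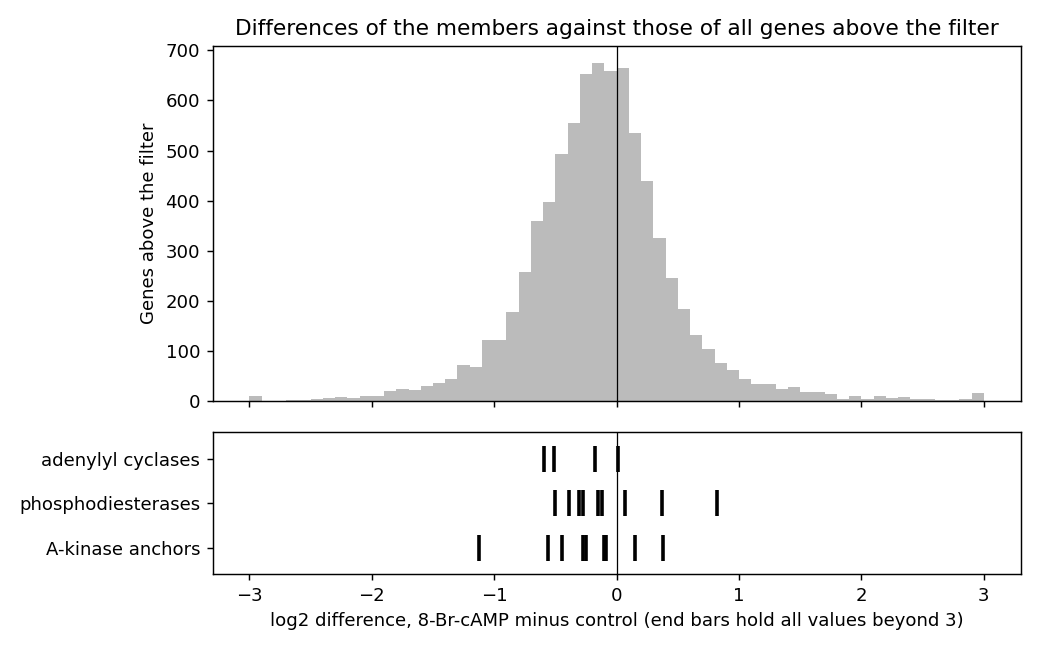
Upper panel, histogram of log2 differences (8-Br-cAMP minus control, no unit) of 7927 genes above the filter; lower panel, 1 tick per member in each family on the same axis. The 22 members run from -1.13 (AKAP7) to 0.82 (PDE8B) and lie within the body of the distribution.

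By the brightest probe set of each gene, AKAP7 had the largest difference of the 22 members over 3 pairs of deposited values. A less bright kept AKAP1 probe set differed more (log2 difference -1.22, against -1.13 for AKAP7), with all treated arrays below all controls. Its difference was -2.18 in pair 1, where 8-Br-cAMP 1 had a signal of 34.1, and -0.86 and -0.61 in pairs 2 and 3. Without the number 1 arrays that AKAP1 probe set gave -0.73, a smaller difference than that of AKAP7. PDE8B exceeded AKAP7 after quantile normalization (log2 differences 1.03 for PDE8B and -0.94 for AKAP7) and with a common median (1.05 and -0.90). PDE4A did so without the number 1 arrays (-1.29 for PDE4A and -1.16 for AKAP7). AKAP7 encodes an anchor whose small lipid-anchored form holds protein kinase A at the plasma membrane, where the kinase is known to act on calcium channels. Its signal was 193.4, 119.4 and 113.2 on 8-Br-cAMP 1, 2 and 3, against 403.3, 237.2 and 285.3 on controls 1, 2 and 3. All treated arrays were lower than all control arrays. By brightest probe set, non-overlap in either direction was seen for 2 of 22 members (9.09%, background 19.9%, or 13.6% for lower genes), AKAP7 and ADCY2, both lower. Mean log2 signal of AKAP7 was 7.11 ± 0.43 with 8-Br-cAMP and 8.23 ± 0.39 in controls (SD, n = 3 each). The log2 difference was -1.06, -0.99 and -1.33 in pairs 1, 2 and 3, and controls were on average 2.19-fold higher. In the paired fit AKAP7 fell by 1.13 on the log2 scale (SE 0.22, 95% interval -1.65 to -0.60, limma adjusted p = 0.0494). Without the block the adjusted p was 0.273, and with both number 1 arrays left out the log2 difference was -1.16 (adjusted p = 0.00257). The paired call was lost in 7 of 12 other settings, among them both other scalings. The other AKAP7 probe sets, 2 in number, lay below the filter level. Which AKAP7 forms each probe set reads is not given in the sources used here.

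Among the other anchors, AKAP12 and AKAP8L were lower in pairs 2 and 3. AKAP12, or gravin, is a plasma membrane scaffold that also binds protein kinase C. Its signal was 72.3, 172.4 and 128.8 on 8-Br-cAMP 1 to 3, against 86.3, 259.9 and 231.2 on controls 1 to 3. Within each pair the treated array was lower, while the groups overlapped because both number 1 arrays lay below the other 4. The log2 difference was -0.56 (paired adjusted p = 0.254), and -0.72 without the number 1 arrays (adjusted p = 0.0278). AKAP8L, a nuclear relative of AKAP8, had signals of 540.4, 593.8 and 538.4 with 8-Br-cAMP, against 390.8, 848.8 and 926.4 in controls. The treated arrays were alike, and control 1 lay below them while controls 2 and 3 lay above. Pair 1 gave a log2 difference of 0.47, pair 2 -0.52 and pair 3 -0.78 (mean -0.28, paired adjusted p = 0.619), and -0.65 without the number 1 arrays (adjusted p = 0.00499). In the second kept AKAP8L probe set both number 1 arrays lay above the other 4, and the difference was -0.37 (paired adjusted p = 0.5175). That probe set did not pass without the number 1 arrays (-0.65, adjusted p = 0.209).

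For the brightest probe sets of AKAP8 and AKAP11 the arrays 2 and 3 of both groups were alike, and the number 1 arrays were not. AKAP8 encodes a nuclear anchor tied to chromatin in mitosis. Its signal was 541.7, 350.5 and 303.2 on 8-Br-cAMP 1 to 3, against 256, 328 and 310.9 on controls 1 to 3, so that 8-Br-cAMP 1 alone stood well above the rest. The log2 difference was 0.38 (paired adjusted p = 0.479), and 0.03 without the number 1 arrays (adjusted p = 0.889). Its second kept probe set pointed the other way, at -0.80 on the log2 scale with no overlap between groups (paired adjusted p = 0.152), and passed without the number 1 arrays (-0.95, adjusted p = 0.0125). AKAP11, which also binds glycogen synthase kinase and protein phosphatase, had signals of 111.8, 258.7 and 262.5 with 8-Br-cAMP, against 288.5, 249 and 265.4 in controls. The single low array was 8-Br-cAMP 1, and the log2 difference was -0.44 (paired adjusted p = 0.487), and 0.02 without the number 1 arrays. In the second kept AKAP11 probe set both number 1 arrays lay above the other 4. It gave -0.29 (paired adjusted p = 0.710), and -0.59 without the number 1 arrays (adjusted p = 0.326).

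AKAP1 tethers protein kinase A to the outer mitochondrial membrane, where the cholesterol carrier STAR acts. Its brightest probe set had signals of 578.9, 389.2 and 460.4 on 8-Br-cAMP 1 to 3, against 812.2, 447 and 483.8 on controls 1 to 3. Each treated array was lower than its partner, the groups overlapped, and both number 1 arrays lay above the others (log2 difference -0.25, paired adjusted p = 0.517). The other kept AKAP1 probe sets were also lower after 8-Br-cAMP, by log2 differences of -0.65 (paired adjusted p = 0.221) and -1.22 (paired adjusted p = 0.134). Both passed with the number 1 arrays left out (-0.94, adjusted p = 0.00347, and -0.73, adjusted p = 0.0346), where the brightest one gave -0.14 (adjusted p = 0.487). Which AKAP1 transcripts each probe set reads is not given in the sources used here. The last kept anchors were AKAP9, a large Golgi and centrosome scaffold, AKAP10, an anchor of both regulatory subunit types, and AKAP13, a large scaffold. By brightest probe set their log2 differences were -0.08, 0.15 and -0.10, with mixed directions between pairs. The 4 kept AKAP13 probe sets ran from -0.62 to -0.006. The one at -0.62 was lower in all 3 pairs (paired adjusted p = 0.260). No kept AKAP13 probe set passed with the number 1 arrays left out.

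**Figure D2:**
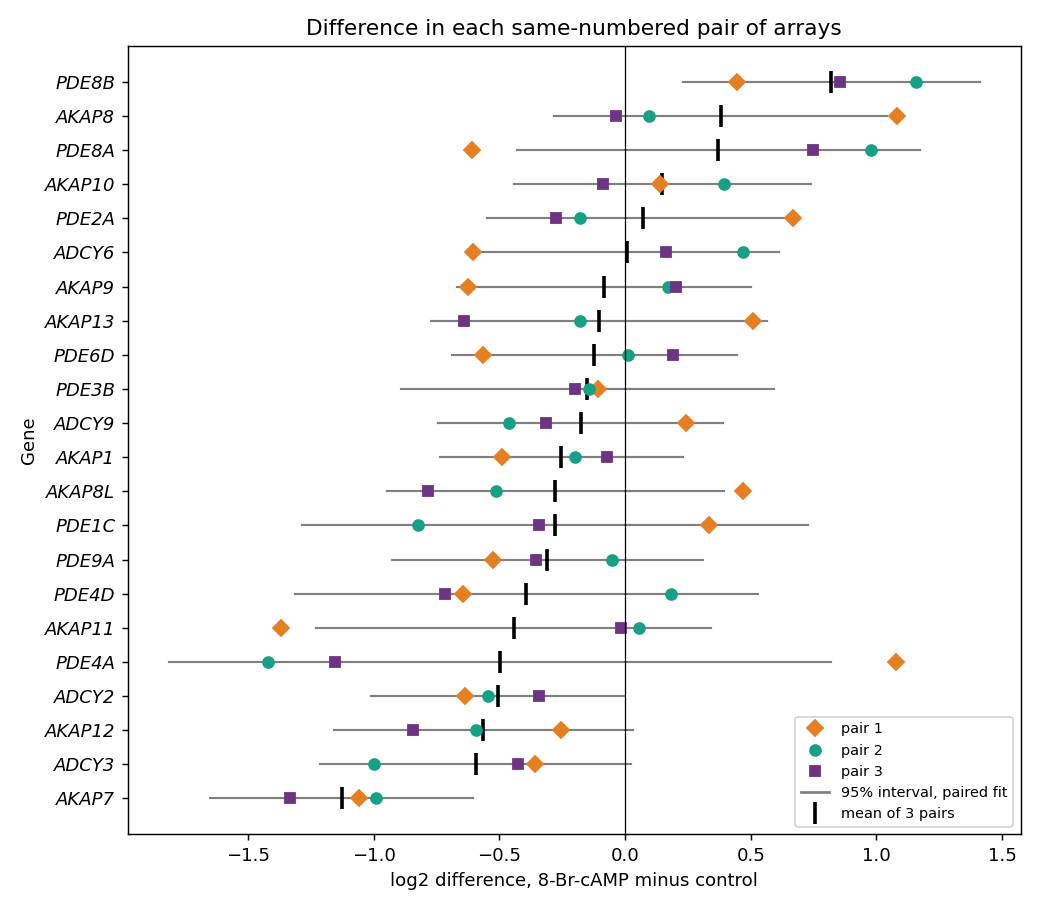
Log2 difference (8-Br-cAMP minus control, horizontal axis) of the 22 genes above the filter, with a marker for each same-numbered pair of arrays, a black tick for the mean of 3 pairs and a grey line for the 95% interval of the paired fit. AKAP7 is lower and PDE8B higher in all 3 pairs, while PDE4A and PDE8A run opposite ways in pair 1 and in pairs 2 and 3.

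Of the phosphodiesterases, PDE8B had the largest mean difference over 3 pairs, while without the number 1 arrays PDE4A differed more (log2 difference -1.29). PDE8A and PDE8B encode cAMP-specific enzymes of high affinity that the inhibitor IBMX does not block. PDE8B signals were 394.7, 170.5 and 168.6 on 8-Br-cAMP 1 to 3, against 289.7, 76.4 and 93.1 on controls 1 to 3. Within each pair the treated array was higher, and the groups overlapped because control 1 lay above 8-Br-cAMP 2 and 3. Mean log2 signal was 7.81 ± 0.70 with 8-Br-cAMP and 6.99 ± 1.04 in controls (SD, n = 3 each), and the log2 difference was 0.45, 1.16 and 0.86 in pairs 1, 2 and 3. PDE8B did not pass the paired fit (log2 difference 0.82, 95% interval 0.23 to 1.41, limma adjusted p = 0.130). Without the number 1 arrays it was higher by 1.01 on the log2 scale (adjusted p = 0.0105). Its sign was the same under both other scalings.

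PDE8A was higher on arrays 2 and 3 and lower in pair 1. The signal was 288, 552.5 and 565.5 on 8-Br-cAMP 1 to 3, against 439.8, 280.7 and 337 on controls 1 to 3. The array 8-Br-cAMP 1 was the lowest of its group and control 1 the highest of its own. Pair 1 gave a log2 difference of -0.61, pair 2 0.98 and pair 3 0.75 (mean 0.37, paired adjusted p = 0.570), and 0.86 without the number 1 arrays (adjusted p = 0.00301). A second kept PDE8A probe set was higher in all 3 pairs, by 0.18, 0.79 and 0.36 on the log2 scale (paired adjusted p = 0.325), and passed without the number 1 arrays (0.57, adjusted p = 0.0322).

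PDE4A showed the opposite arrangement. The PDE4 enzymes are cAMP-specific, are blocked by rolipram and are activated when protein kinase A phosphorylates their long forms. PDE4A signals were 114.6, 33.5 and 38 on 8-Br-cAMP 1 to 3, against 54.3, 89.8 and 84.5 on controls 1 to 3. Treated arrays 2 and 3 lay below the filter level and below every control, while 8-Br-cAMP 1 lay above every control. Pair 1 gave a log2 difference of 1.08, pair 2 -1.42 and pair 3 -1.15, and PDE4A was the 1 member of 22 to differ by at least 2-fold in both pairs 2 and 3 (4.55%, background 9.97%, or 5.82% for lower genes). Over 3 pairs it was -0.50 (95% interval -1.82 to 0.82, paired adjusted p = 0.649), and without the number 1 arrays -1.29 (adjusted p = 0.0286). Its fold is imprecise at signals this low. PDE4D, of the same family, had signals of 55.8, 53 and 44.6 with 8-Br-cAMP, against 87.3, 46.7 and 73.2 in controls, all near the filter level. The groups overlapped (log2 difference -0.39, paired adjusted p = 0.606). The PDE4B probe sets lay below the filter level.

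PDE9A encodes a phosphodiesterase specific for cGMP. Its signal was 119, 106.4 and 88.9 on 8-Br-cAMP 1 to 3, against 171.1, 110.4 and 113.6 on controls 1 to 3. Each treated array was lower than its partner, with an overlap between groups (log2 difference -0.31, paired adjusted p = 0.536). PDE2A, which cGMP activates to degrade cAMP, separated the array numbers and not the groups. Its signal was 877, 170.6 and 170.3 on 8-Br-cAMP 1 to 3, against 552.2, 193 and 205.9 on controls 1 to 3. Both number 1 arrays, those with the high actin 3'/5' ratio, lay far above the other 4, and the part of RNA integrity in this was not tested. The log2 difference of PDE2A was 0.07 (95% interval -0.55 to 0.69, paired adjusted p = 0.905), and -0.23 without the number 1 arrays (adjusted p = 0.335). PDE2A and ADCY6 are given by array because of their values, after these were seen. PDE1C, an enzyme activated by calcium and calmodulin, and PDE3B, an enzyme that cGMP inhibits and insulin activates, had log2 differences of -0.28 and -0.15. The prenyl-binding gene PDE6D had -0.12, and no direction was the same in all settings for PDE1C, PDE3B and PDE6D.

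Adenylyl cyclases ADCY2 and ADCY3 were lower in every pair, and neither passed. ADCY2 encodes a cyclase that G protein beta-gamma subunits stimulate. Its signal was 249.4, 186.1 and 213.7 on 8-Br-cAMP 1 to 3, against 387.5, 271.4 and 271 on controls 1 to 3. All treated arrays were lower than all controls, by log2 differences of -0.64, -0.54 and -0.34 in pairs 1, 2 and 3. The mean was -0.51 (95% interval -1.01 to -0.01, paired adjusted p = 0.231), and -0.44 without the number 1 arrays (adjusted p = 0.0669). A second kept ADCY2 probe set gave -0.58 (paired adjusted p = 0.404).

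ADCY3 is a widely expressed cyclase best known from odorant signalling. Its signal was 174.9, 86 and 93.7 on 8-Br-cAMP 1 to 3, against 224.5, 171.9 and 125.9 on controls 1 to 3. Treated arrays were lower within each pair, and 8-Br-cAMP 1 overlapped with the controls. Its log2 difference was -0.60 (95% interval -1.21 to 0.02, paired adjusted p = 0.249), and -0.71 without the number 1 arrays (adjusted p = 0.0577). The second ADCY3 probe set was lower on all treated arrays than on all controls (-0.83, paired adjusted p = 0.123), and passed without the number 1 arrays (-0.70, adjusted p = 0.0333).

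ADCY6, a cyclase inhibited by calcium, was low on the number 1 arrays of both groups. Its signal was 290, 1445.8 and 1532.4 on 8-Br-cAMP 1 to 3, against 441.2, 1044.6 and 1368 on controls 1 to 3. Pair 1 gave a log2 difference of -0.61, pair 2 0.47 and pair 3 0.16 (mean 0.01, 95% interval -0.60 to 0.61, paired adjusted p = 0.989). ADCY9, a cyclase with weak sensitivity to forskolin, had a log2 difference of -0.18 (-0.74 to 0.39), with kept probe sets of both signs. Number 1 arrays both above the other 4 occurred in 6 of 22 members (27.3%, background 23.3%), and both below in 4 of 22 (18.2%, background 19.6%).

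**Figure D3:**
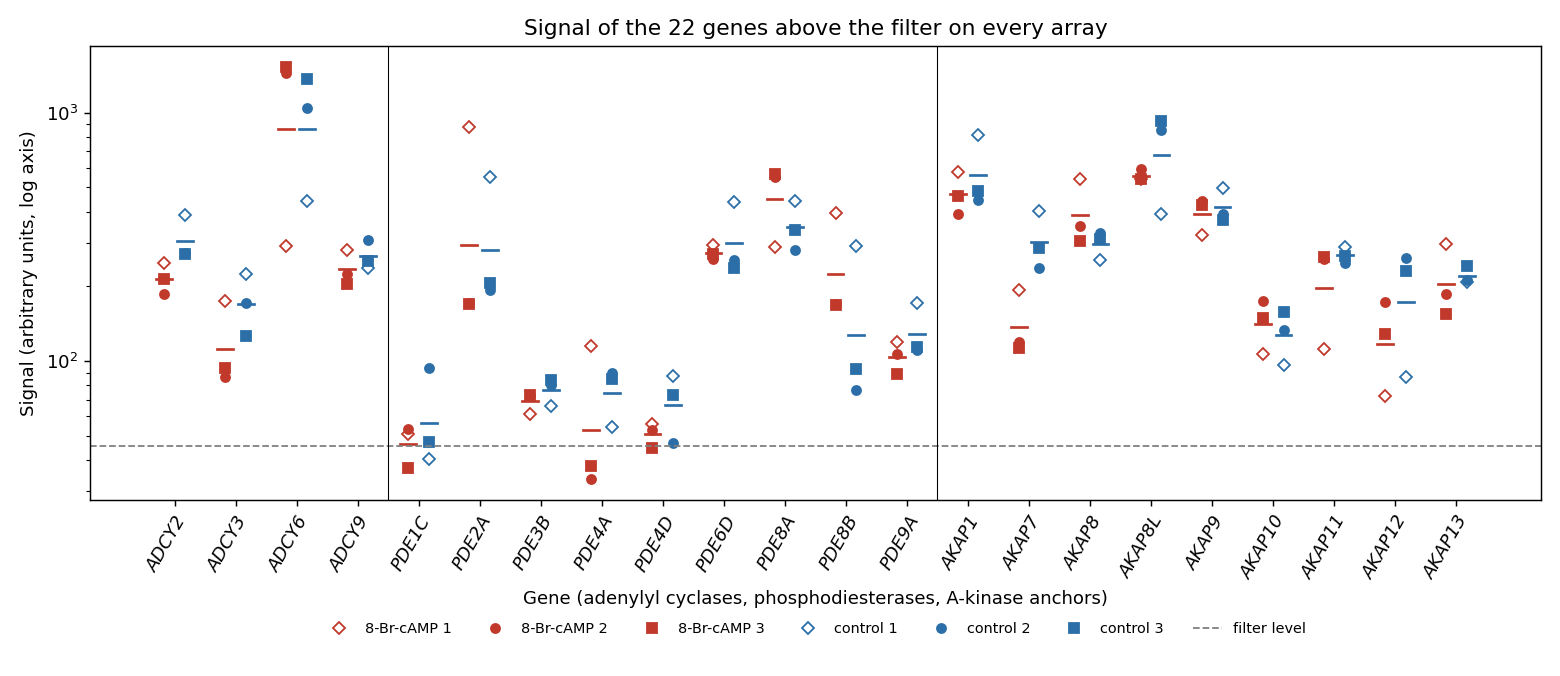
Signal on every array (log axis, arbitrary units) of the 22 genes above the filter, red for 8-Br-cAMP and blue for control, with open diamonds for the number 1 arrays, bars for geometric means (n = 3) and a dashed line for the filter level of 45.5. PDE2A is high and ADCY6 low on both number 1 arrays, and the treated and control arrays of AKAP7 and ADCY2 do not overlap.

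Of the 22 members 11 had more than 1 kept probe set. In 9 of these all kept probe sets had the same sign of the difference, and in 2 (ADCY9 and AKAP8) they did not. For the brightest probe sets of 11 members the 95% interval of the paired fit lay within 2-fold in either direction. These were ADCY6, ADCY9, AKAP1, AKAP8L, AKAP9, AKAP10, AKAP13, PDE2A, PDE3B, PDE6D and PDE9A. For the other 11 the interval reached 2-fold or more. Of the 10 other kept probe sets of the listed genes, 7 had an interval that reached 2-fold, in ADCY9, AKAP1, AKAP8L, AKAP13 and PDE6D.

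**Figure D4:**
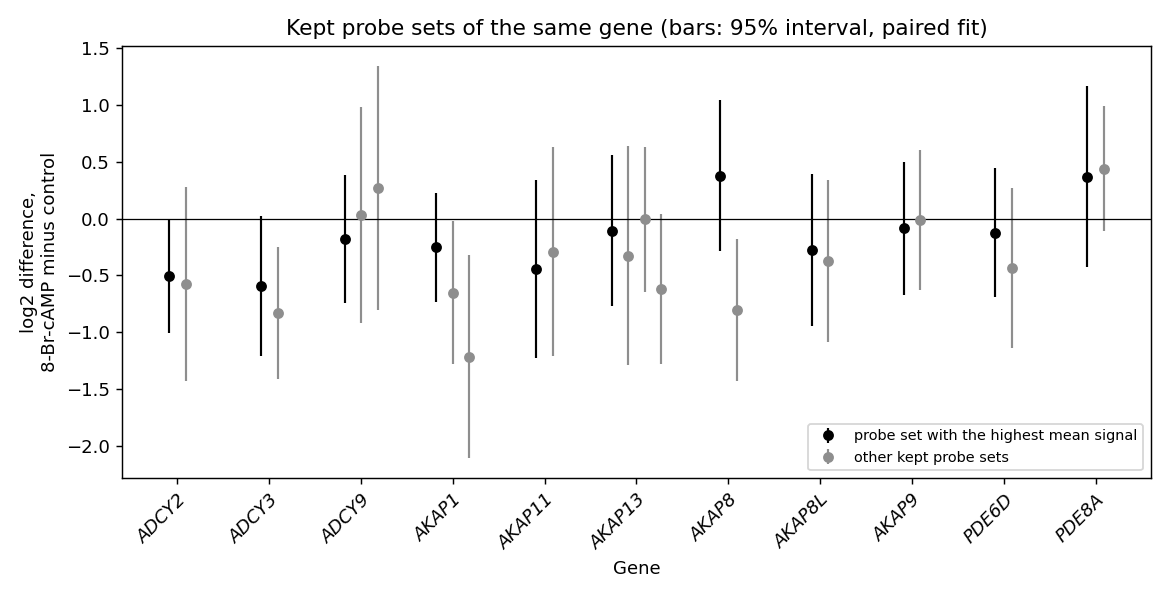
Log2 difference (8-Br-cAMP minus control, vertical axis) of each kept probe set for the 11 genes with several, black for the probe set with the highest mean signal and grey for the others, with the 95% interval of the paired fit. Both ADCY3 probe sets lie below 0 and both PDE8A probe sets above it, while those of AKAP8 lie on opposite sides at 0.38 and -0.80.

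The remaining 18 members lay below the filter level and were not tested. They were the cyclases ADCY1, ADCY7, ADCY8 and ADCY10, the anchors AKAP3, AKAP4, AKAP5 and AKAP6, and the phosphodiesterases PDE1B, PDE3A, PDE4B, PDE5A, PDE6A, PDE6B, PDE6C, PDE7B, PDE10A and PDE11A. ADCY1 and ADCY8 are cyclases of neurons, AKAP3 and AKAP4 belong to the sperm tail, and PDE6A, PDE6B and PDE6C to photoreceptors. PDE11A is known in adrenal cortex. Their signals ran from 0.4 to 68.2, with 15 of 108 values above 45.5. PDE7B, the nearest to the filter level, had signals of 19.9, 51.2 and 46.5 with 8-Br-cAMP, against 50.2, 59.1 and 46.6 in controls. PDE1C, just above it, had 51, 53.2 and 37.2 with 8-Br-cAMP, against 40.5, 94.2 and 47.2 in controls. A signal below the level does not show that a transcript was absent.

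The other genes of the pathway had no call without the block or in the paired fit. Of 50 listed genes (G proteins, protein kinase A, other cAMP effectors, anchors outside the name pattern and the cyclic GMP side) 43 were analysed and 29 lay above the filter. In limma 0 of 29 rose and 0 fell, both without the block (background 0%) and in the paired fit (background 3.68%). An unadjusted p under 0.05 was reached by 5 of 29 in the paired fit (17.2%, background 22.4%), 2 higher and 3 lower, and by 4 of 29 without the block (13.8%, background 11.9%). Leaving out the number 1 arrays gave 12 calls of 29 (41.4%, background 33.3%), 6 higher (background 12.8%) and 6 lower (background 20.5%). The higher ones were GNAI1, PRKAR1A, PRKAR2B, RAP1B, RDX and NPR1. The lower ones were PRKACA, PRKACB, RAB32, NF2, SYNM and LRBA. The smallest paired p-values among the lower genes belonged to LRBA, a large anchor of the beige family (log2 difference -1.02, paired adjusted p = 0.0568), the kinase catalytic subunit gene PRKACB (-0.71, adjusted p = 0.130) and the tumour suppressor NF2 (-0.71, adjusted p = 0.150). Among the higher genes they belonged to NPR1, the natriuretic peptide receptor that makes cGMP (2.02, paired adjusted p = 0.0811), PRKAR2B (1.34, adjusted p = 0.153) and ACBD3, a Golgi protein that binds the kinase regulatory subunit (0.43, adjusted p = 0.260). Without the number 1 arrays LRBA (-1.08, adjusted p = 0.00110), PRKACB (-0.80, adjusted p = 0.00571) and NF2 (-0.75, adjusted p = 0.0490) passed. So did NPR1 (1.49, adjusted p = 0.0170) and PRKAR2B (2.08, adjusted p = 1.04e-05), while ACBD3 did not (0.46, adjusted p = 0.0517). NPR1 signals were 94.4, 102.1 and 93.9 with 8-Br-cAMP, against 11.2, 41.2 and 29.6 in controls, with every control below the filter level, so its fold is imprecise. PRKAR2B, which encodes the regulatory subunit that many anchors bind, had signals of 2516.9, 6365.4 and 6717.3 on 8-Br-cAMP 1 to 3, against 2770.4, 1479 and 1615.3 on controls 1 to 3. In pair 1 the treated array was slightly lower, and in pairs 2 and 3 it was far higher.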

How the data were processed

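RNA from 3 8-Br-cAMP and 3 control plates was hybridised to Affymetrix oligonucleotide arrays. The authors deposited linear signal intensities from GCOS 1.3, per the submitters' processing notes, with 1 value for each probe set. The array columns had 2% trimmed means near 250 each (249.996 to 250.155), so they were used without further normalization. Such scaling would hide a change shared by most transcripts. Of 22277 probe sets, 62 array controls were left out, and 19064 of 22215 had 1 gene symbol in GEO's platform annotation. Detection calls were not used, and the number of arrays limits the precision.

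Log2 signals above the 40th percentile (13329 probe sets) were compared by limma 3.58.1 under R 4.3.3 (lmFit, eBayes with an intensity trend, two-sided), with Benjamini-Hochberg adjustment over these probe sets and a threshold of 0.05. The fits were also tried on simulated data with the same noise on every array. That trial does not cover arrays of unlike quality, and no result here rests on it. Deviations from the group mean correlated at 0.603, 0.378 and 0.538 for same-numbered arrays 1, 2 and 3. The value was 0.547 for 8-Br-cAMP 2 with control 3 and 0.312 for 8-Br-cAMP 3 with control 2. Between a number 1 array and an array of another number it was -0.596 to -0.379. These values set the number 1 arrays apart and do not settle how arrays 2 and 3 pair. The arrays were treated as pairs by number, a choice that no label states and on which the paired fit rests. By rule, signals on every array are given for the 12 kept members with the smallest paired p and for PDE4A. Outside that rule they are given for PDE2A, ADCY6, PDE1C and PDE7B, and for the pathway genes NPR1 and PRKAR2B. The members, lists, rules and alternatives were chosen with earlier results of these data known. Protein sequences were not used here.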

Additional observations from a re-analysis of the deposited data

How the results depend on the processing

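Without the block the count of probe sets past an adjusted p of 0.05 was 17 after quantile normalization and 17 with a common median, 18 with the stricter filter at the 60th percentile, 26 with a pseudocount of 16 and 26 with a floor at the 20th percentile. It was 880 under the 2-fold selection with an unadjusted p, 4103 without both number 1 arrays and 4680 without them and with the replicate block, and 0 to 285 with 1 array left out (58 without control 1, 285 without 8-Br-cAMP 1). The replicate block alone gave 428. The members' count of 0 became 1 with the replicate block and 1 under the 2-fold selection, 6 without both number 1 arrays and 7 without them and with the block, ADCY3 being added. That of the other pathway genes became 12 without both number 1 arrays. Combined with the block, settings added after the data were seen, the count of 428 became 142 with a common median and 81 without an intensity trend, and 4680 without pair 1. The members' count of 1 became 0 with quantile normalization, a common median, no filter, no trend or robust variances. With 1 pair left out it ran from 0 to 7. AKAP7 kept its sign throughout (log2 difference -1.20 to -1.03 with 1 pair left out), and its paired call was lost with quantile normalization (-0.94), a common median (-0.90), and, at -1.13, with no filter, no trend and robust variances, and with pair 2 or pair 3 left out. Its paired adjusted p ran from 0.000441 to 0.334 over these 12 settings.

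Of 259 values of the 22 members under alternatives other than leaving out 1 array, 226 kept direction and side of the threshold, 14 newly passed and 19 changed sign. Signs turned after quantile normalization for ADCY6 (-0.028), AKAP13 (0.078), PDE3B (0.061) and PDE6D (0.00603). They turned with a common median for ADCY9 (0.049), AKAP9 (0.14), AKAP13 (0.12), PDE3B (0.076) and PDE6D (0.10). Averaging the kept probe sets turned ADCY9 (0.044) and AKAP8 (-0.21). Without both number 1 arrays, with and without the block, they turned for AKAP9 (0.19), AKAP11 (0.020), PDE2A (-0.23) and PDE6D (0.10). With 1 array left out the log2 difference crossed 0 for ADCY6 (-0.47 to 0.80), AKAP1 (-0.42 to 0.015), AKAP9 (-0.17 to 0.059), AKAP10 (-0.047 to 0.35), AKAP13 (-0.37 to 0.10), PDE1C (-0.52 to 0.091), PDE2A (-0.72 to 0.56) and PDE6D (-0.29 to 0.15). The causes were not tested. With 1 array left out, 0 of 132 values of the members passed without the block.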
